A study of Mus musculus with 8 samples.

Results

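Interferon response genes lying outside the major histocompatibility complex were followed in mesonephric tubules of mouse embryos that were either wild type or labelled as p21-null. The set was a list of 42 genes named by symbol: interferon receptors, the transcription factors they activate, and genes whose transcription interferon is known to raise. A gene entered if an array probe annotated to it was well above background on at least 3 of 8 arrays. The brightest such probe stood for it. All 42 genes had such a probe, and they made up 42 of the 33619 genes or unnamed array features that were tested. The naming of the genes used no measured value, whereas the filter and the choice of probe used the signal. The list was also drawn up with earlier results of these data known.

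The mesonephros is a transient embryonic kidney. The study, as its design text states, compared tubules of wild type embryos, described there as senescent, with those of p21-null embryos, described as not senescent. p21, encoded by Cdkn1a, is an inhibitor of cyclin-dependent kinases. There were 5 wild type and 3 p21-/- samples, both labelled as strain C57/BL6, and no treatment other than the staining of the sections was named. Frozen sections were stained with toluidine blue, the tubules were dissected under the microscope, and total RNA was labelled with Cy3 and hybridised to 1-colour Agilent arrays. The embryonic stage, the sex, the number of embryos behind a sample and the design of the p21 allele are not given in the sources used here. Nothing in the labels states that the samples of a group came from separate embryos, so the p-values measure the spread between these samples only.

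Type I interferons bind a receptor made of Ifnar1 and Ifnar2, and type II interferon binds one made of Ifngr1 and Ifngr2. Janus kinases bound to these receptors phosphorylate transcription factors of the STAT family. Stat2 acts with Irf9 in a complex that binds interferon-stimulated response elements, and the type II response works through gamma activated sequences. The genes so induced encode antiviral effectors, sensors of foreign nucleic acid, GTPases, proteasome subunits, and the brakes on the pathway, Socs1 and Usp18. Many of these genes also have a basal level in uninfected tissue, and macrophages are among the cells known for high levels of them.

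Values are log2 processed signals minus the 75th percentile of each array, so a value of 0 means a signal at that percentile. A level was compared between arrays for the same probe only, since probes differ in how strongly they bind. The share of probes well above background ranged from 82.2% to 89.2% over the arrays. The median local background lay between 38.0 and 44.1 intensity units on slide 1, which carried the first 3 wild type samples together with p21-null-labelled replicate 1. It lay between 91.3 and 135 on slide 2 (replicate 4 of the wild type and replicate 2 of the other group) and slide 3 (replicates 5 and 3). Of the 42 genes, 39 were well above background on all 8 arrays and none was saturated. The targeted gene itself did not separate the groups. Cdkn1a read 2.49, 2.52, 0.44, 1.85 and 1.11 in wild type replicates 1 to 5, against 2.11, 0.96 and 1.40 in p21-null-labelled replicates 1 to 3. The difference was -0.19 ± 0.54 (SE), with a limma adjusted p of 0.95 and a two-sided exact permutation p of 0.768. Whether its probes lie inside the deleted part is not known here, so the genotype is given as labelled throughout. All 15 mesonephric duct and tubule markers passed the filter on dim probes, 13 of them well above background on every array. No gene or feature passed an adjusted p of 0.05, the smallest adjusted p being 0.148, and 3400 (10.1%) had an unadjusted p under 0.05 in the same limma fit.

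Most interferon response genes averaged higher in the p21-null-labelled arrays, by amounts that did not pass the test after adjustment. The difference of means was positive for 32 of the 42 genes and negative for 10, with a median of 0.35 on the log2 scale. Over all tested features 47.7% of differences were positive and the median was -0.03. At an unadjusted limma p under 0.05, 7 of 42 genes (16.7%) were higher and 0 were lower, where 6.2% of all features were higher and 3.91% were lower. The 7 genes were Dtx3l, Xaf1, Ifnar2, Parp9, Parp14, Ifit2 and Ifi35. A difference of at least 2-fold upward was seen for 9 genes (21.4%, against 7.77% of all features), and 1 gene, Oasl2, was lower by at least that much (7.18% of all features). All 3 p21-null-labelled arrays lay above all 5 wild type arrays for Dtx3l, Xaf1 and Ifit2, which is 7.14% of the genes against 4.43% of all features. No gene had its groups apart in the other direction (2.47% of all features). The adjusted p, by limma with Benjamini-Hochberg over all 33619 features, ran from 0.302 for Dtx3l to 0.995 for Ifngr2. Without p21-null-labelled replicate 1 or without replicate 3, 2 genes in place of 7 were higher at an unadjusted p under 0.05, and without replicate 2 there were 12. The number over all features moved too, from 3400 to 2362 without replicate 1, 1750 without replicate 3 and 3810 without replicate 2. On the same arrays macrophage markers averaged higher by 0.95, erythroid markers by 2.11 and liver markers by 2.49 on the log2 scale, and their part in the interferon gene values was not tested. In such bulk samples fewer cells of a type and less RNA per cell cannot be told apart.

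**Figure D1:**
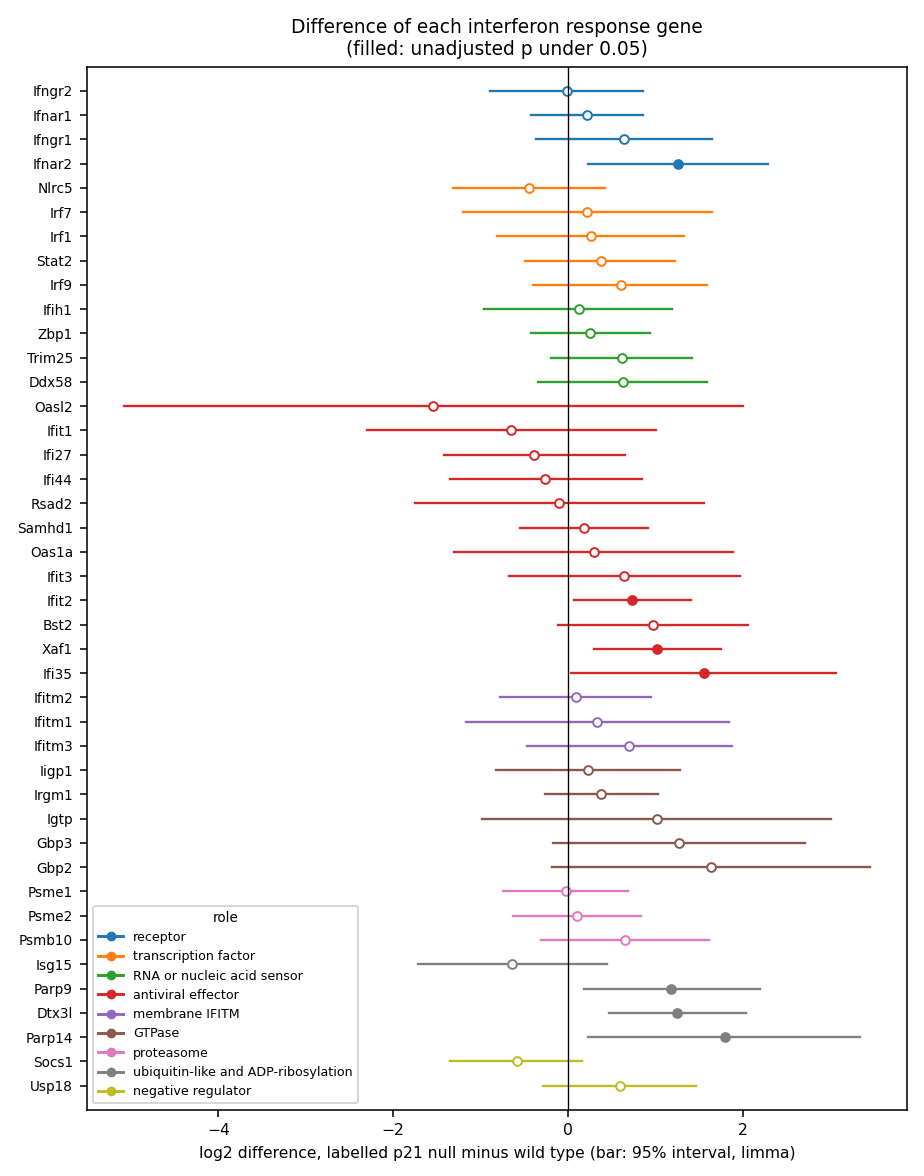
Difference of group means (p21-null-labelled minus wild type, log2 scale) for each of the 42 genes with its 95% confidence interval from limma, grouped and coloured by role, filled points marking an unadjusted p under 0.05. The interval lay above 0 for 7 genes, Dtx3l and Xaf1 among them, and every other interval crossed 0.

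By gene, the response element core was found in 17 of 35, against 3.99% of all genes with a window, and in none of the 5 matched genes at an unadjusted p under 0.05. The gamma activated sequence was found in 10 of 35 genes, against 9.55% of all genes, and in 3 of those 5, Ifnar2, Ifit2 and Ifi35. No test was made between genes with and without a match. The 250 bases upstream of an annotated start are printed for the 3 genes whose groups did not overlap. Those of Ifit1 and Ifit3, relatives of Ifit2 among the 42 genes, are printed too. Capitals mark the matches, and each sequence reads 5′ to 3′ along the strand of the gene.
Dtx3l, chr16:35939028-35939277, minus strand: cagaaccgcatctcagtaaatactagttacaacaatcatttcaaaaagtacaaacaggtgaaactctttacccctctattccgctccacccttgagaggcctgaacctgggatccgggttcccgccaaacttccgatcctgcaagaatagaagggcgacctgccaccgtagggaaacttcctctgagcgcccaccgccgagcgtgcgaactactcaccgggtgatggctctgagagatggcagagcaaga
Xaf1, chr11:72301379-72301628, plus strand: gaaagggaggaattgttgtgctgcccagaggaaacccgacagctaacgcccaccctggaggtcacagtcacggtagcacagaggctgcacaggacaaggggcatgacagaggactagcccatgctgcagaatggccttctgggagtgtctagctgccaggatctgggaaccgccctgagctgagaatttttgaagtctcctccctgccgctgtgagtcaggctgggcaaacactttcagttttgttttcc
Ifit2, chr19:34550444-34550693, plus strand: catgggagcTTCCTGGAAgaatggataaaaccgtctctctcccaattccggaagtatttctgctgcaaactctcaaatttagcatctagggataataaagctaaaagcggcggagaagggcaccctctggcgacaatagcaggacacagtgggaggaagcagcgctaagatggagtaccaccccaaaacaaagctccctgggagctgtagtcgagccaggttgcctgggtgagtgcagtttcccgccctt
Ifit1, chr19:34640639-34640888, plus strand: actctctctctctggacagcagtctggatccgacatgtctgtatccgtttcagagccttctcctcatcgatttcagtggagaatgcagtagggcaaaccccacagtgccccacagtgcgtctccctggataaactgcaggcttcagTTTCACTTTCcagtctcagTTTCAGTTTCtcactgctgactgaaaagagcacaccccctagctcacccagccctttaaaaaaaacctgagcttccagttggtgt
Ifit3, chr19:34583279-34583528, plus strand: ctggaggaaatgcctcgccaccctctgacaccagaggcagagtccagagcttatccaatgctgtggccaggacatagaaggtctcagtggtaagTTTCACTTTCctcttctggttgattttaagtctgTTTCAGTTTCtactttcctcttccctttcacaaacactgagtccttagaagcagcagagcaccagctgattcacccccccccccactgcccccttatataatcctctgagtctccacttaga
Dtx3l and Xaf1 held neither motif in this stretch and Ifit2 held 1 gamma activated sequence. Ifit2 had 2 promoter windows, of which only 1 is printed, and neither window held a response element core. Ifit1 and Ifit3 each held 2 response element cores. Their groups overlapped on the arrays.

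For 6 further genes with at least 2 response element cores, a stretch of 60 bases around the matches is shown, since these hold dense runs of the element. Capitals again mark matches of either motif, overlapping ones running together. In Bst2 the run opens with 1 gamma activated sequence, which overlaps the first of 2 response element cores.
Isg15, chr4:156200856-156200915, minus strand: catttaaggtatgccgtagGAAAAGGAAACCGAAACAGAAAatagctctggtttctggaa
Oas1a, chr5:120907526-120907585, minus strand: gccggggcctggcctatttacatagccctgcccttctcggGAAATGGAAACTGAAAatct
Bst2, chr8:71537565-71537624, minus strand: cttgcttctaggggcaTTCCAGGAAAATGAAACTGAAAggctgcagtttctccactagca
Irgm1, chr11:48871421-48871480, minus strand: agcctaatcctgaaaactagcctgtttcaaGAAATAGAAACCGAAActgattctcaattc
Gbp3, chr3:142559977-142560036, plus strand: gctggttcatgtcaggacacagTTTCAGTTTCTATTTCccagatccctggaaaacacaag
Socs1, chr16:10785582-10785641, minus strand: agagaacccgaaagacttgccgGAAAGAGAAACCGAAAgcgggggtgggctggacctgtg
With Ifit1, Ifit3 and Ifitm3, whose window is not printed, 9 genes held at least 2 cores. The difference between groups was positive for 6 of the 9 and negative for Ifit1, Isg15 and Socs1, and none had an unadjusted p under 0.05.

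Among the receptors, Ifnar2 was the one with the largest difference. It encodes the receptor chain that binds type I interferon the more tightly. Its values were -0.80, -0.28, 0.38, -1.22 and 0.55 in wild type replicates 1 to 5, against 1.27, 0.54 and 1.15 in p21-null-labelled replicates 1 to 3. Replicates 1 and 3 of the second group stood above every wild type array, and replicate 2 lay just under wild type replicate 5. The difference was 1.26 ± 0.46 (SE), or 2.39-fold (limma unadjusted p = 0.0223, adjusted p = 0.40; two-sided exact permutation p = 0.0536). Its partner chain Ifnar1 read 0.24, 0.78, 0.70, 0.88 and 0.80 against 1.21, 0.87 and 0.60, and its groups overlapped. That difference was 0.21, with a 95% confidence interval from -0.43 to 0.86. Ifngr1, the ligand-binding chain of the type II receptor, read 1.17, 1.29, 0.18, 0.91 and 1.60 against 2.32, 0.78 and 1.90. Replicates 1 and 3 were above all wild type arrays and replicate 2 was below 4 of 5 of them, for a difference of 0.64 (interval -0.37 to 1.65). Ifngr2, the signalling chain of that receptor, differed by -0.01 (interval -0.89 to 0.86).

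None of the 5 transcription factors had an unadjusted p under 0.05. Irf9, the DNA-binding part of the complex that holds Stat2, read 1.14, 0.19, 1.57, -0.05 and 1.24 in wild type replicates 1 to 5, against 1.60, 0.97 and 1.68. The groups overlapped through p21-null-labelled replicate 2, and the difference was 0.60 (interval -0.40 to 1.59). Nlrc5, known as a transactivator of MHC class I genes, read -1.23, -2.18, -2.48, -1.14 and -2.09 against -2.08, -2.46 and -2.28. Its p21-null-labelled arrays were all within the wild type range, and the difference was -0.45 (interval -1.32 to 0.42). Stat2 read -1.29, -0.30, -0.76, -0.65 and -0.58 against 0.24, -1.11 and -0.18. Here replicates 1 and 3 were above every wild type array and replicate 2 was below 4 of 5, for a difference of 0.37. Irf1, a factor induced by type II interferon, differed by 0.26, and Irf7, which drives type I interferon genes, by 0.22.

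The antiviral effectors were a mixed role, with 7 of 12 differences positive and 5 negative. Xaf1, an interferon-induced protein that binds the apoptosis inhibitor XIAP, read -4.61, -4.00, -4.58, -3.82 and -4.00 in wild type replicates 1 to 5. It read -3.40, -2.77 and -3.36 in the p21-null-labelled replicates, each above every wild type array. The difference was 1.02 ± 0.32 (SE), 2.03-fold (limma unadjusted p = 0.011, adjusted p = 0.343; two-sided exact permutation p = 0.0179, the smallest that the 56 splits of 5 and 3 arrays allow). This separation held for 1 of 2 Xaf1 probes. The other probe, well above background on 6 of 8 arrays, differed by -0.21.

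Ifit2 belongs to a family whose proteins bind viral RNA and block its translation. It read -4.39, -4.26, -3.75, -3.88 and -4.13 against -3.0, -3.67 and -3.38, with no overlap between groups. The gap was narrow, since p21-null-labelled replicate 2 was just above wild type replicate 3. The difference was 0.73 ± 0.29 (SE), 1.66-fold (limma unadjusted p = 0.0343, adjusted p = 0.447; exact permutation p = 0.0179). Over 20 alternative fits the Ifit2 difference ran from 0.49 to 0.89, with an unadjusted limma p under 0.05 in 9. Its relatives among the 42 genes, Ifit3 and Ifit1, did not share that pattern. Ifit3, the next gene on chromosome 19, differed by 0.64 (interval -0.68 to 1.97), with p21-null-labelled replicate 1 at -0.41 and replicate 2 at -3.47, the highest and the lowest of its 8 arrays. Ifit1 differed by -0.65 (interval -2.30 to 1.0). Within slide 1 Ifit1 differed by -2.05, within slide 2 by 1.66 and within slide 3 by -0.19. Outside the 42 genes, the family member Ifit1bl1 differed by 1.86, with no overlap between groups. Its probe was well above background on 4 of 5 wild type arrays.

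Ifi35, an interferon-induced leucine zipper protein, read -2.13, -2.92, -3.47, -5.35 and -3.0 against -1.80, -2.49 and -1.19. The p21-null-labelled replicate 2 lay below wild type replicate 1, and wild type replicate 4 was the lowest of all arrays. The difference was 1.55 ± 0.67 (SE), 2.92-fold (limma unadjusted p = 0.0467, adjusted p = 0.485; exact permutation p = 0.0893). Bst2, which tethers budding virus particles to the cell surface, differed by 0.97 (interval -0.12 to 2.06) with replicates 1 and 3 above every wild type array and replicate 2 inside their range. Of the remaining effectors, Oas1a (which makes the 2-5A signal for RNase L) differed by 0.30, Samhd1 (a dNTP hydrolase) by 0.18, Rsad2 (viperin) by -0.10, Ifi44 by -0.26 and Ifi27 by -0.39. Oasl2, an OAS family member, had the lowest difference, -1.54 (interval -5.08 to 2.0). Its probe cleared the background on 4 of 5 wild type arrays but on 1 of 3 p21-null-labelled arrays, so the remaining values rest on signals near background.

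The sensors of foreign RNA and DNA all had positive differences, none with an unadjusted p under 0.05. Trim25, the ubiquitin ligase that acts on the RNA sensor encoded by Ddx58, read 2.0, 1.44, 1.96, 1.03 and 2.20 against 2.62, 1.91 and 2.48. Replicates 1 and 3 stood above all wild type arrays, for a difference of 0.61 (interval -0.20 to 1.42). Ddx58, which encodes RIG-I, read -1.56, -2.01, -0.71, -2.43 and -1.19 against -0.50, -1.18 and -1.17. Only replicate 1 was above all wild type arrays, and the difference was 0.63 (interval -0.34 to 1.59). Zbp1, a sensor of Z-form nucleic acid, read 0.81, 0.74, 0.65, 0.00 and 0.51 against 0.46, 0.89 and 1.05, a difference of 0.25. Ifih1, which encodes the long-RNA sensor MDA5, differed by 0.12.

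The role with the most genes at an unadjusted limma p under 0.05, for its size, was ubiquitin-like modification and ADP-ribosylation, with 3 of 4. Of all features 6.2% were higher at that p. The 3 genes were Dtx3l, Parp9 and Parp14, which are direct neighbours in the order Parp14, Dtx3l, Parp9 on chromosome 16. The roles were drawn up with earlier results of these data known. This role was singled out by its count, so the count is description only. Dtx3l is a ubiquitin ligase that works in a complex with Parp9, and Parp9 and Parp14 belong to the ADP-ribosyltransferase family. Dtx3l read -2.39, -2.52, -2.48, -2.33 and -1.59 in wild type replicates 1 to 5, against -0.60, -1.55 and -0.89 in p21-null-labelled replicates 1 to 3. The groups did not overlap, although wild type replicate 5 and p21-null-labelled replicate 2 differed by little. The difference was 1.25 ± 0.35 (SE), 2.38-fold (limma unadjusted p = 0.00549, adjusted p = 0.302; two-sided exact permutation p = 0.0179), and a second Dtx3l probe differed by 1.33.

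Parp9 read -2.73, -2.64, -1.46, -2.80 and -1.59 against -1.04, -1.64 and -0.50. Its overlap came from p21-null-labelled replicate 2, which lay below wild type replicates 3 and 5. The difference was 1.18 ± 0.45 (SE), 2.27-fold (limma unadjusted p = 0.026, adjusted p = 0.412; exact permutation p = 0.0714). Parp14 read -1.50, -2.63, -3.04, -4.70 and -2.10 against -0.55, -1.88 and -0.58, and again replicate 2 was the array that overlapped. The difference was 1.79 ± 0.69 (SE), 3.45-fold, the largest fold of the 42 genes (limma unadjusted p = 0.0287, adjusted p = 0.422; exact permutation p = 0.0714). Isg15, a ubiquitin-like protein conjugated to other proteins, lay on the other side of 0. It read -1.06, -0.07, 0.20, -1.53 and 0.38 against -1.32, -0.90 and -0.96, within the wild type range throughout, for a difference of -0.64 (interval -1.72 to 0.44).

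**Figure D2:**
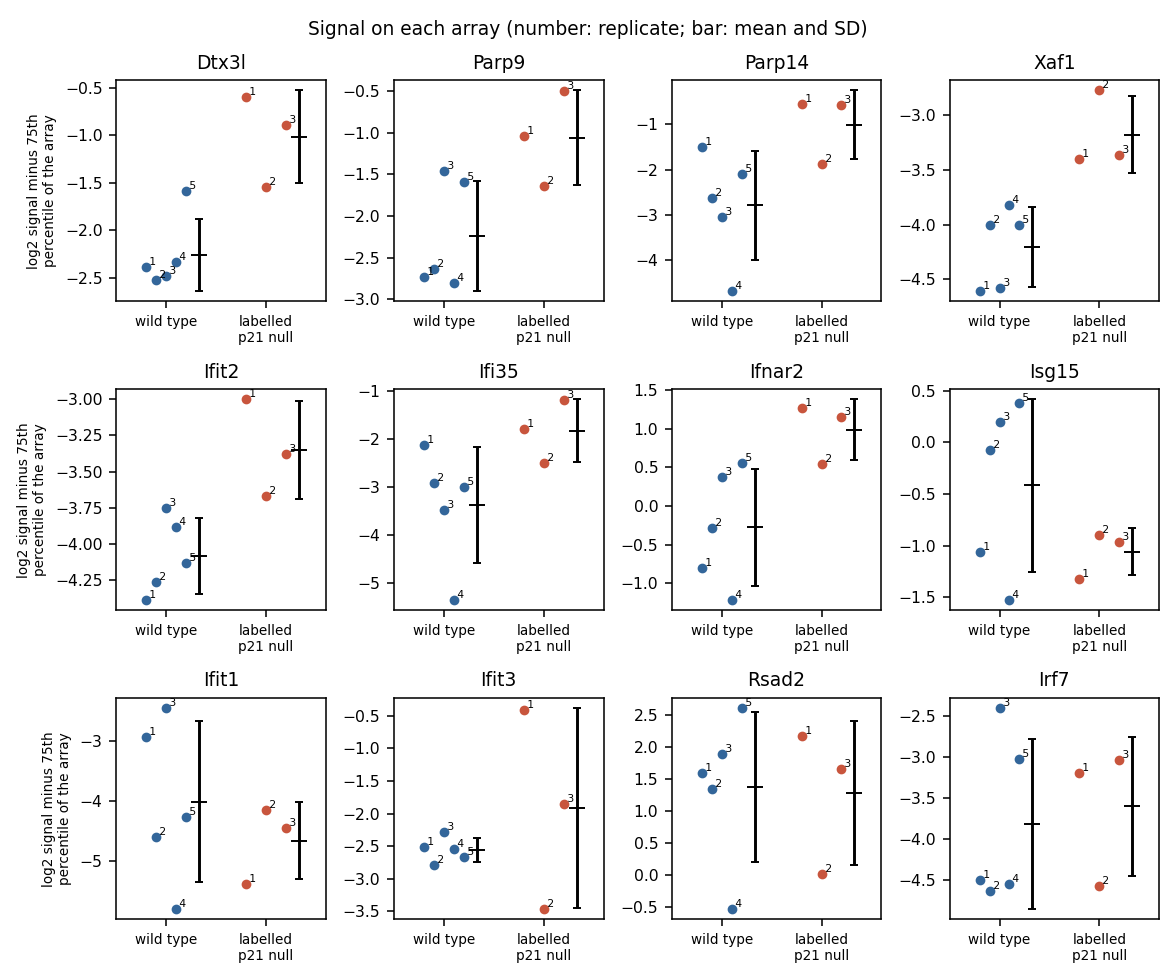
Values of 12 genes on each array (log2 processed signal minus the array's 75th percentile; points are arrays, numbered by replicate, and bars are group means with SD), 7 with an unadjusted limma p under 0.05 and Isg15, Ifit1, Ifit3, Rsad2 and Irf7 beside them. Groups did not overlap for Dtx3l, Xaf1 and Ifit2, while p21-null-labelled replicate 2 fell within the wild type range for Ifnar2, Parp9, Parp14 and Ifi35.

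All 5 interferon-inducible GTPases had positive differences. Gbp2, a guanylate-binding protein that acts on the vacuoles of intracellular microbes, read -4.36, -6.08, -3.89, -6.99 and -4.50 against -2.13, -4.50 and -3.97, with a signal well above background on all 3 of the latter and 3 of 5 of the former. Only replicate 1 was above every wild type array, and the difference was 1.63 (interval -0.19 to 3.45). Its relative Gbp3, well above background on 3 of 5 and 2 of 3 arrays, read -7.85, -6.42, -5.06, -5.56 and -5.88 against -4.37, -5.83 and -4.44. That difference was 1.27 (interval -0.17 to 2.71), with replicates 1 and 3 above the wild type range. Irgm1, a regulator of the immunity-related GTPases, read -1.28, -1.70, -2.01, -2.03 and -1.49 against -1.28, -1.32 and -1.37. The p21-null-labelled arrays lay close together at the top of the wild type range, for a difference of 0.38. Igtp, another GTPase of that class, differed by 1.01 with an interval from -0.98 to 3.0, and Iigp1 by 0.23.

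The IFITM proteins, which block fusion of viruses with cell membranes, showed broad overlap. Ifitm3 read 2.03, 0.47, 0.42, -0.34 and 1.21 against 1.95, 1.28 and 1.14, a difference of 0.70 (interval -0.47 to 1.87). Ifitm1 read 0.32, -1.51, -0.80, -0.25 and 1.57 against 0.44, 0.77 and -0.62, and Ifitm2 read 3.91, 3.52, 2.75, 3.1 and 4.20 against 3.78, 3.69 and 3.28. For none of these genes, 3 neighbours on chromosome 7, did a p21-null-labelled array exceed the highest wild type array. The differences of Ifitm1 and Ifitm2 were 0.33 and 0.09.

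Of the proteasome genes, Psmb10, the catalytic subunit of the immunoproteasome known as MECL-1, read 1.79, 1.67, 0.66, 1.43 and 2.49 against 2.44, 1.78 and 2.56. Wild type replicates 1 and 5 lay within the p21-null-labelled range, replicate 1 only just, and the difference was 0.65 (interval -0.31 to 1.61). The activator subunits differed less: Psme1 by -0.03 (interval -0.75 to 0.68) and Psme2 by 0.10 (interval -0.63 to 0.83). Psme1 read 1.83, 1.25, 1.78, 1.51 and 1.10 against 1.77, 0.99 and 1.62, and Psme2 read 2.92, 2.02, 2.61, 2.70 and 2.02 against 2.83, 2.35 and 2.50.

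The 2 brakes on the pathway lay on opposite sides of 0. Socs1, which blocks Janus kinases, read -1.78, -1.49, -2.52, -1.49 and -2.10 against -2.27, -2.33 and -2.80. The p21-null-labelled replicate 3 was the lowest of all 8 arrays and the other 2 were below 4 of 5 wild type arrays, for a difference of -0.59 (interval -1.35 to 0.16). Socs1 was lower within each slide, by -0.34, -0.84 and -0.70 on slides 1, 2 and 3. Usp18, which removes Isg15 from proteins and binds Ifnar2, read -2.39, -2.70, -3.02, -1.81 and -1.68 against -1.49, -2.17 and -1.55. Replicates 1 and 3 were above all wild type arrays, and the difference was 0.59 (interval -0.29 to 1.46).

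Across the 42 genes the arrays of a group were uneven. The mean over the genes was -0.85, -1.07, -1.02, -1.60 and -0.71 in wild type replicates 1 to 5 (mean -1.05 ± 0.34 SD, n = 5) and -0.24, -1.18 and -0.50 in p21-null-labelled replicates 1 to 3 (mean -0.64 ± 0.48 SD, n = 3). The p21-null-labelled replicate 2 was therefore below 4 of 5 wild type arrays. It was above the wild type mean for 21 of 42 genes, against 35 for replicate 1 and 32 for replicate 3, and it was the lowest of its group for 30 genes. The p21-null-labelled replicate 1 was the highest of all 8 arrays for 18 genes, and wild type replicate 4 was the lowest for 16. All 3 p21-null-labelled arrays exceeded the wild type mean for 16 genes. The same counts over all features are not given here, so they do not set these genes apart from the rest of the array. On slides 1, 2 and 3 the mean over the genes differed by 0.74, 0.42 and 0.20, and with slide as a block it differed by 0.49.

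**Figure D3:**
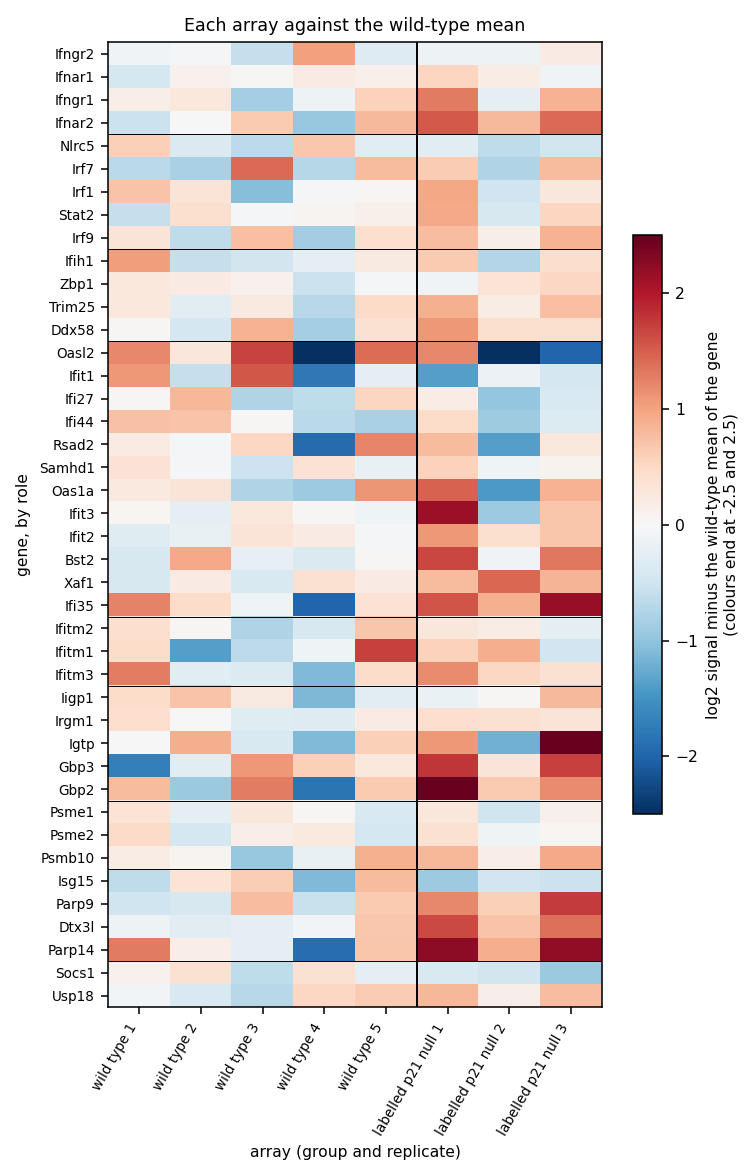
Each of the 42 genes (rows, by role) on each of the 8 arrays (columns), coloured by its value minus the wild type mean of that gene (log2 units). The p21-null-labelled replicate 1 was highest for 18 genes and wild type replicate 4 lowest for 16, and replicate 2 of the p21-null-labelled group was the lowest of its group for 30.

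Factors activated by interferon bind short sequence elements in the promoters of their target genes. Of the 42 genes, 35 matched a RefSeq promoter window (build GRCm38.p6, 250 bases before to 50 after a transcription start), giving 40 windows. The 7 without one were Ifi27, Iigp1, Nlrc5, Parp14, Parp9, Usp18 and Zbp1. The core of the interferon-stimulated response element was searched as 2 copies of GAAA separated by any 2 bases, and the gamma activated sequence as TTCNNNGAA, each on both strands. Matches of the first may overlap each other. The response element core was found in 17 of 40 windows (42.5%), against 3.44% of all 32851 windows of that length. The gamma activated sequence was found in 10 of 40 windows (25.0%), against 8.3%. A match is a run of letters and not a shown binding site, and a missing match says only that these letters are not in the window.

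For 14 of the 42 genes the array held further probes, and for 9 of the 14 all probes had a difference of the same sign. The 5 others were Ifnar1, Isg15, Nlrc5, Xaf1 and Zbp1. The second Oas1a probe, well above background on all 8 arrays, differed by 1.18, where the brighter probe gave 0.30. In a limma fit of all probes that second probe had an unadjusted p of 0.00756. For Ifih1 a second probe, well above background on 6 of 8 arrays, gave 1.12 in place of 0.12, and for Irgm1 a second probe gave 0.86 in place of 0.38. The second probe of Isg15 gave 0.09 in place of -0.64, and that of Nlrc5 gave 0.13 in place of -0.45. Second probes also gave 1.03 for Iigp1 (brightest 0.23), 1.03 for Ddx58 (0.63) and 0.64 for Samhd1 (0.18). For Psme2 the second gave 0.36 (0.10), for Irf1 0.16 (0.26) and for Zbp1 -0.13 (0.25). The other 2 probes of Ifnar1 gave -0.19 and 0.03 (0.21).

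**Figure D4:**
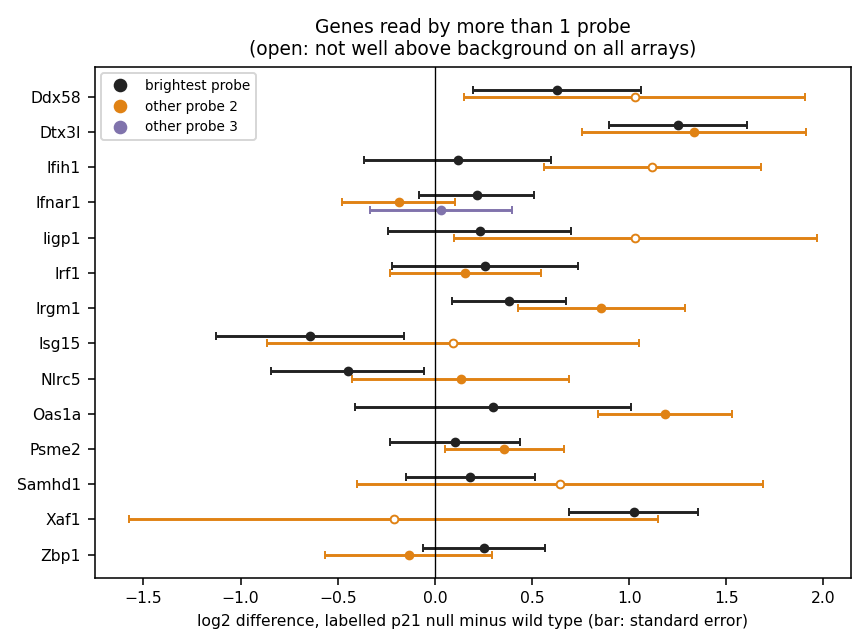
Difference of group means (p21-null-labelled minus wild type, log2 scale, with SE) for every probe of the 14 genes that had more than 1. Colours give the probe number, where only number 1, the brightest, was set by signal. Open points mark probes not well above background on all 8 arrays. Both Dtx3l probes lay near 1.3, whereas the probes of Xaf1 lay at 1.02 and -0.21.

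Other genes of the pathway were set beside the 42 from a list of 70, of which 64 had a probe and 61 passed the filter. The difference was positive for 48 and negative for 13, with a median of 0.63. At an unadjusted limma p under 0.05, 16 (26.2%) were higher and 0 were lower, against 6.2% and 3.91% of all features. The groups did not overlap for 9 (14.8%), all higher, against 4.43% of all features in that direction. The smallest adjusted p was 0.288. Without p21-null-labelled replicate 1, and likewise without replicate 3, 7 in place of 16 were higher at that p. The smallest p belonged to Ube2l6, the enzyme that carries Isg15 to its targets, which read 1.72, 0.81, 1.57, 1.64 and 2.15 in wild type replicates 1 to 5, against 3.38, 2.46 and 3.45 in the p21-null-labelled replicates. No wild type array reached the p21-null-labelled range, and the difference was 1.52 ± 0.39 (SE; limma unadjusted p = 0.00336, adjusted p = 0.288).

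The next by p were Ifit1bl1 (difference 1.86), Ifi30 (a lysosomal thiol reductase, 1.39), Isg20 (an RNA exonuclease, 1.92), Mavs (the mitochondrial adaptor of RNA sensing, 1.91), Ifi47 (a GTPase, 1.76), Ifi204 (0.92) and Il10rb (a receptor chain shared with type III interferon, 1.14). Of the Janus kinases, Jak1 differed by 0.35, Jak2 by 0.45 and Tyk2 by 1.45, none with an unadjusted p under 0.05. The Tyk2 probe was well above background on 4 of 5 wild type arrays. It read -8.26 on wild type replicate 3 and from -5.02 to -3.58 on the other wild type arrays. The ligand genes Ifnb1 and Ifng differed by 0.58 and -0.24, and each overlapped between groups.

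Markers of other cell types differed between the same arrays. The values of each list are given here as the range of its mean over the arrays of a group. The macrophage list, of which 19 of 20 genes had a probe and all 19 were well above background on every array, averaged between -0.57 and 0.75 in wild type arrays and between 0.56 and 1.09 in p21-null-labelled arrays. Of these, 15 of 19 were higher on average, 10 at an unadjusted limma p under 0.05, with Tyrobp (1.62) and Laptm5 (2.09) of smallest p, while the differences of Csf1r and Itgam were -0.26 and -0.02. Erythroid markers averaged from -0.04 to 2.59 in wild type and from 2.80 to 3.71 in p21-null-labelled arrays, and 11 of 12 were higher. Liver markers averaged from -0.46 to 3.27 and from 3.07 to 4.43, and 16 of 16 were higher.

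Replicate 2 was the lowest of the p21-null-labelled arrays in the mean over the interferon genes and in the macrophage, erythroid, liver, lymphocyte, endothelial and stroma lists, and the highest in the duct and tubule and neural lists. Lymphocyte and plasmacytoid markers ranged from -1.85 to -1.15 and from -1.79 to -1.20, and 2 of the 12, Ms4a1 and Klrd1, did not pass the filter. The endothelial list ranged from -1.81 to 0.27 and from -1.31 to -0.11. The stroma list ranged from 1.24 to 2.90 and from 0.91 to 1.92. Duct and tubule markers ranged from -1.75 to 1.07 and from -1.76 to -0.41, and neural markers from -1.30 to 0.81 and from -2.63 to -1.56, with 10 of 10 lower.

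**Figure D5:**
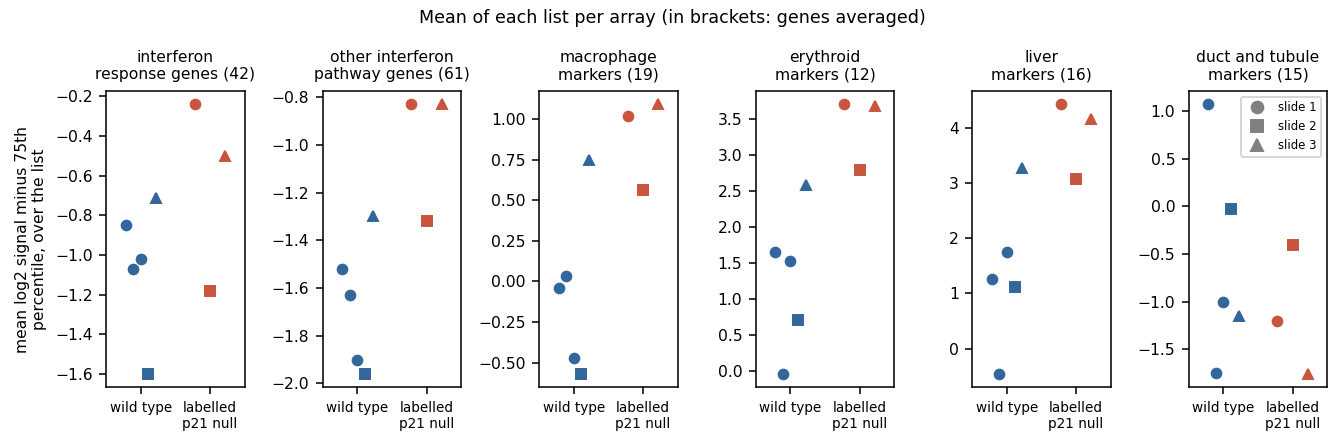
Mean level over each of 6 gene lists on each array (log2 processed signal minus the array's 75th percentile), wild type and p21-null-labelled arrays side by side, with the symbol giving the slide. The 42 interferon response genes overlapped between groups, the erythroid list did not, and the macrophage list overlapped through wild type replicate 5 at 0.75.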

How the data were processed

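Total RNA of 5 wild type and 3 p21-/- samples was hybridised to 1-colour arrays. The deposited scanner files hold linear intensity values per spot from Agilent Feature Extraction 10.7.3.1, per the file headers. The processed signal used here was already corrected for background by that software. The authors also deposited 1 table for the whole series, on the log2 scale, for which limma is named in the submitters' processing notes. How background was removed in it is not stated there. Column medians were 9.256 to 9.257, and the columns correlated at 0.99995 or more with log2 values after normexp correction and quantile scaling, which leaves scale and centring known only by that match. It served as an alternative.

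The log2 processed signal minus each array's 75th percentile was taken over 59305 non-control spots, flagged outlier spots were left out, and spots of a probe were averaged. Of 55681 probes, 50046 were well above background on at least 3 of 8 arrays. The brightest probe stood for each gene, leaving 18169 named genes and 15450 unnamed features. Groups were compared without covariates by lmFit and eBayes of limma 3.58.1 under R 4.3.3, with Benjamini-Hochberg adjustment over all 33619. Single genes were also compared by a two-sided exact permutation test. Replicates were neither pooled nor paired, and the number of arrays limits the precision. Slides 1 to 3 were read from the file headers. The fit was tested on simulated data. Alternatives covered scaling, normexp correction (offset 50, on median spot intensity), filters, the choice of probe, slide and replicate blocks, moderation, array weights, the deposited table and each array left out. Deviations of same-numbered samples correlated at 0.07, -0.09 and -0.07.

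The 42 genes, their roles and the lists set beside them were chosen with earlier results of these data known. Values on every array were given for genes at an unadjusted p under 0.05 and for the 3 of each role with the smallest p. Of the other pathway genes, the 8 of smallest p, the Janus kinases and the ligands were named, and 1 further gene that the rule names is not reported here. Promoter windows came from RefSeq, build GRCm38.p6. Probes were named by matching the accession in the files to RefSeq transcripts, which named 26056 of 55681.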

Additional observations from a re-analysis of the deposited data

Results flagged for a closer look

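In 3 of the 42 genes a single wild type array stood far from the other 4. Its gap to the nearest of them, as a share of the range, exceeded Dixon's 95% critical value for 5 samples. Chance gives such a gap in about 1 of 20 groups. For Ifnar1, the type I interferon receptor chain, wild type replicate 1 was at 0.24 and the others were between 0.70 and 0.88. For Oasl2, wild type replicate 4 was at -8.45 and the others were between -3.57 and -2.17, and this array was the one wild type array on which the probe was not well above background. For Dtx3l, wild type replicate 5 was at -1.59 and the others were between -2.52 and -2.33. That array was the wild type array nearest to the p21-null-labelled range of -1.55 to -0.60. The 3 arrays lay on slides 1, 2 and 3.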

How the results depend on the processing

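The count of all features at an adjusted p under 0.05 was 0, and it was 3 with normexp correction, 8 with array weights and 0 to 1 with an array left out (1 without wild type replicate 4). Of the 42 genes, 7 were higher at an unadjusted p under 0.05, and 2 to 12 were with an array left out. Over the alternative fits and probes, the limma p of the 7 was under 0.05 in 21 of 21 for Dtx3l and 18 of 21 for Xaf1. It was so in 18 of 20 for Ifnar2, 17 of 20 for Parp14, 15 of 20 for Parp9, 14 of 20 for Ifi35 and 9 of 20 for Ifit2. The number lower was 0, and 1 with the replicate block, 1 with array weights and 0 to 2 with an array left out (1 without wild type replicate 3, 2 without replicate 4). The groups did not overlap upward for 3 genes and for 3 to 16 with an array left out (16 without p21-null-labelled replicate 2, 6 without wild type replicate 1), and downward for 0 to 1. With fewer arrays any gene separates more readily. The shares over all features with an array left out are not given here, so these counts cannot be read as a result about the genes. The median difference was 0.35, and 0.26 to 0.73 with an array left out. It was 0.60 with the mean of all probes of a gene in place of the brightest. For the other pathway genes, 16 higher became 7 to 18, and 0 lower became 1 with the replicate block and 0 to 1 with an array left out. The replicate block gave 6 genes higher in place of 7. Deviations of same-numbered samples were little correlated. The labels do not say whether the numbers pair the samples, and such correlations cannot settle it. Direction reversed for 20 of the 42 genes under some alternative fit, probe or left-out array, the cause not tested. Within single slides, where no test was made, the sign differed on at least 1 slide for 26 genes, among them 8 outside those 20 (Gbp3, Ifi27, Ifit1, Ifitm3, Ifngr1, Oasl2, Stat2 and Usp18) and 0 of the 7 at an unadjusted limma p under 0.05. Under normexp and the deposited table Ifnar1 gave -0.070 and -0.11. Ifngr2 gave 0.026 with quantile scaling, 0.048 with median scaling, 0.22 with the replicate block and 0.15 with array weights. Psme1 gave 0.029 with median scaling, 0.066 with slide as a block and 0.078 with array weights. With slide as a block Rsad2 gave 0.13 and Ifi44 0.055. Ifitm2 gave -0.14 with array weights and Iigp1 -0.24 with the replicate block. A second probe gave -0.19 for Ifnar1, 0.092 for Isg15, 0.13 for Nlrc5, -0.21 for Xaf1 and -0.13 for Zbp1. With an array left out, the difference ran from -0.10 to 0.63 for Irf1, -0.062 to 0.71 for Irf7, -0.16 to 0.24 for Ifngr2, -0.11 to 1.42 for Ifit3, -0.15 to 0.54 for Ifih1 and -0.29 to 1.16 for Oas1a. It ran from -0.58 to 0.53 for Rsad2, -0.0086 to 0.76 for Ifitm1, -0.10 to 0.26 for Ifitm2, -0.063 to 2.13 for Igtp and -0.060 to 0.42 for Iigp1. It ran from -0.19 to 0.20 for Psme1, -0.032 to 0.22 for Psme2, -0.011 to 0.33 for Samhd1, -0.61 to 0.055 for Ifi44 and -0.50 to 0.076 for Cdkn1a. Signals near background limit Gbp2, Gbp3 and Oasl2.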
